A study of Mus musculus with 150 samples.

Results

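Bulk RNA from sorted mouse airway and lung epithelial cells of the Scgb1a1 lineage was compared between p53 knockout and wild-type mice, using 6 of the 150 samples of the series. Each genotype has 3 libraries, assigned by their labels, and all genes with at least 1 FPKM (a level scaled to transcript length and to the fragments mapped in the library) in at least 3 libraries were described. Of 24341 rows, 11966 genes met this. Both groups carried Scgb1a1-CreERTM and Rosa26-mT/mG; the wild-type group was p53+/+ and the knockout group p53flox/flox, labelled p53-/- in the genotype field. All mice were 8 to 12 weeks old and received tamoxifen, which activates CreERTM; the labels put collection at 70 days after tamoxifen in the protocol and at day 30 in the titles. GFP+, EpCAM+ cells negative for CD31, CD34, CD45 and the dead-cell dye 7AAD were sorted. Because the Cre is driven by Scgb1a1, the deletion and the GFP label are switched on only in cells with active Scgb1a1, and cells in which the p53 alleles escaped deletion would still carry the label. Nothing in the labels ties each library to its own animal; the p-values therefore rest on library-to-library spread that could be technical only. The design text puts the question as progenitor cell behaviour with and without p53.

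The protein p53 is a transcription factor that is kept low by the ubiquitin ligase Mdm2 and, when stabilised by DNA damage or other stress, activates genes that stop the cell cycle, trigger apoptosis or adjust metabolism. Scgb1a1 encodes the main secretory protein of club cells, the progenitors that renew the secretory and ciliated cells of the small airways. In mice the Scgb1a1 lineage also includes a share of alveolar type 2 cells, which make surfactant.

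Markers of club, ciliated and alveolar type 2 cells were all present in every library. Scgb3a2, a club cell secretoglobin, was at 8587 to 37396 FPKM, Lamp3 of type 2 cells at 141 to 692 FPKM, and Foxj1 of ciliated cells at 5.12 to 32.9 FPKM. The basal cell markers Krt5, Krt14 and Trp63 were at most 0.353 FPKM, and the endothelial markers Pecam1 and Cdh5 at most 0.557 FPKM, whereas Kdr, an endothelial receptor gene, was at 52.03 to 97.2 FPKM. The leukocyte gene Ptprc (CD45) was low but present in every library, at 0.817 to 4.12 FPKM. Scgb1a1 itself was marked as without a valid estimate in all 6 libraries and is not analysed here.

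Depth differed between the libraries. The low FPKM values move in steps, since a gene seen with 1 read takes the value of 1 read in that library. Set against wild-type replicate 1, the deepest, the steps put relative depth at 80.7% and 49.6% in wild-type replicates 5 and 6, and at 29.1%, 56.9% and 14.2% in knockout replicates 7, 8 and 10. With transcript lengths from GENCODE this corresponds to roughly 40300000 reads in the deepest library and 5700000 in the shallowest. A low gene is therefore measured less precisely in knockout replicates 10 and 7 than in the wild-type libraries.

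Wild-type replicate 1 stood apart from the other libraries. Over 11959 genes its Pearson correlation with wild-type replicates 5 and 6 was 0.954 and 0.946, while those 2 correlated at 0.982 and the knockout pairs at 0.975 to 0.980. It differed by at least 2-fold from replicate 5 in 789 genes and from replicate 6 in 1028, against 118 genes between replicates 5 and 6. Summed over list members with a value in every library, club cell genes were at 41449 FPKM in it and at 94954 and 94416 FPKM in replicates 5 and 6, and goblet cell genes at 5984 against 45077 and 47563 FPKM. Alveolar type 2 genes were at 26764 against 14616 and 15038 FPKM, and motile cilium genes at 1318 against 452 and 441 FPKM. Genotype was separated by the second principal component, on which all 3 wild-type libraries lay on one side.

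**Figure D1:**
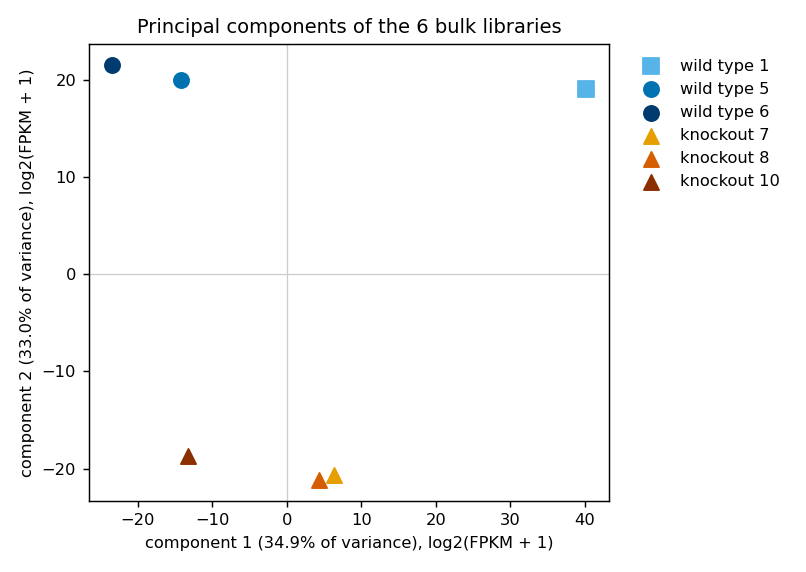
Principal components 1 and 2 of log2(FPKM + 1) over tested genes with a value in every library; each point is 1 library (wild type 1, 5 and 6; knockout 7, 8 and 10). Component 1 (34.9% of variance) sets wild-type replicate 1 at 40.1 apart from the other 5 (-23.4 to 6.42), and component 2 (32.96%) puts the wild-type libraries at 19.02 to 21.5 and the knockout libraries at -21.2 to -18.7.

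Gene by gene, log2(FPKM + 1) was compared with limma, and p-values were adjusted by Benjamini-Hochberg over all 11966 genes. Fold changes are knockout minus wild type on this scale, which understates the change of low genes. Over the 6 libraries 1 gene passed an adjusted p of 0.05 (0.00836% of those tested). At an unadjusted p under 0.05, 843 genes were higher in the knockout (7.04%) and 724 lower (6.05%), so 53.8% of these were higher; after scaling the libraries to equal summed FPKM the split was 187 higher and 437 lower (30.0% higher). These sums leave out entries marked as without a valid estimate, which differ between libraries. Sftpc, at 56452 FPKM in wild-type replicate 6, is missing from the sums of wild-type replicates 1 and 5. Scaling by median ratio instead gave 828 higher and 741 lower. Its factors were 1.001 to 1.006, so it left the deposited values nearly unchanged. Knockout and wild-type libraries did not overlap in 1083 genes that were higher (9.05%) and 1226 that were lower (10.2%). The median log2 fold change of all tested genes was 0.0078 over 6 libraries and -0.014 without wild-type replicate 1.

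Leaving out wild-type replicate 1 gave 337 higher genes (2.82%) and 71 lower genes (0.593%) past the adjusted p of 0.05, while leaving out any other single library gave 1 to 3. A change is called held here when it passed the adjusted p without replicate 1, had an unadjusted p under 0.05 over all 6 libraries in the same direction, and showed no overlap between the 3 and 3 libraries. By this rule 121 genes were held higher (1.01%) and 61 held lower (0.51%). With libraries scaled to equal summed FPKM, held genes numbered 54 higher and 74 lower, 42.2% higher against 66.5% as deposited; 37 of the 121 and 44 of the 61 were shared, and this scaling moved the median of all genes to -0.08. Scaled by median ratio instead, 117 higher and 61 lower genes were held, all of them also held as deposited. With factors of 1.001 to 1.006 that scaling changed little, so the agreement is no separate check. With no filter on low values, over 17931 genes, 0 were held in either direction. A further 216 genes were higher and 10 lower at the adjusted p without replicate 1 but were not held; in all 226 the 3 and 3 libraries overlapped, and 151 of the 216 also had an unadjusted p under 0.05 over 6 libraries. In 146 higher and 187 lower genes the unadjusted p was under 0.05 over 6 libraries and no longer so without replicate 1. Replicate 1 lay within 0.5 log2 units of the mean of the other 2 wild-type libraries in 133 of these 146 and 142 of these 187, and their median fold changes were 0.34 and -0.42 over 6 libraries and 0.27 and -0.33 without it. The 2 fits share 5 libraries and are not independent. Among the held genes, replicate 1 lay within 0.5 log2 units of the mean of the other 2 wild-type libraries in 41 of the 61 lower genes but in 42 of the 121 higher genes.

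**Figure D2:**
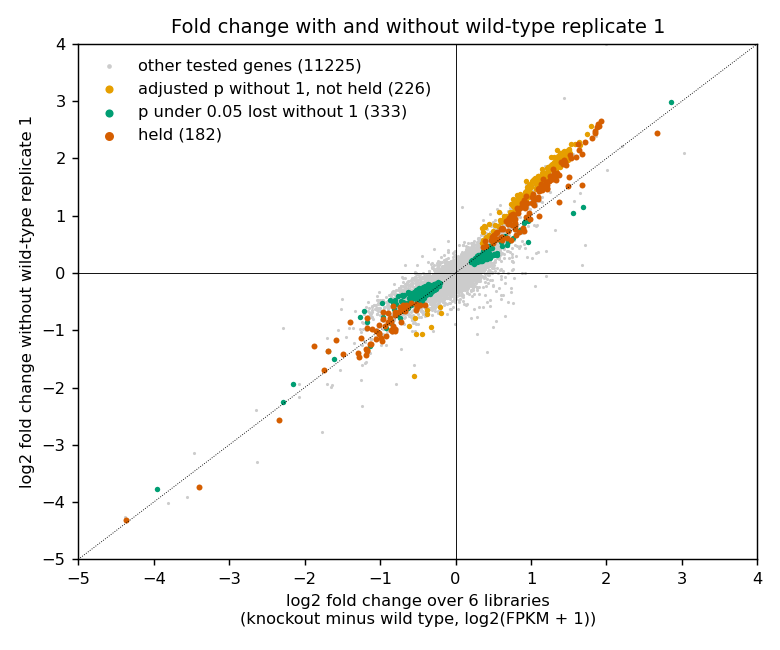
Log2 fold change (knockout minus wild type, log2(FPKM + 1)) over 6 libraries on the x axis and without wild-type replicate 1 on the y axis; each point is a tested gene, coloured by class, and the dotted line marks equal values. The 216 higher genes past the adjusted p without replicate 1 that were not held lie above the line.

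Trp53, the targeted gene (chromosome 11, 69580359 to 69591873, mm10), was lower in every knockout library. Here and below, values are given in the order wild-type replicates 1, 5 and 6, then knockout replicates 7, 8 and 10. Trp53 was at 16.6, 22.2 and 21.7 FPKM in wild type and at 8.63, 9.98 and 7.56 FPKM in knockout. The groups did not overlap, and the knockout mean was 43.2% of the wild-type mean. Its log2 fold change was -1.12 (SE 0.149, adjusted p = 0.144) over 6 libraries and -1.25 (adjusted p = 0.0098) without replicate 1, so it was held. An exact permutation test (two-sided) gave p = 0.1, which no design of 3 against 3 can go below. The FPKM covers the whole gene, and exons outside the floxed part count towards it.

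The p53 targets that act on the cell cycle and growth had lower values as a rule. Of 30 tested members of 33, 22 had a negative fold change, 8 were lower at an unadjusted p under 0.05 and 1 was higher, and 12 did not overlap, all lower. For this list and those below, the shares over all tested genes were 7.04% higher and 6.05% lower at that p. Without overlap they were 9.05% higher and 10.2% lower. The median was -0.17, and -0.15 without replicate 1. Held lower were Cdkn1a, Ccng1, Phlda3, Psrc1 and 9030617O03Rik. Cdkn1a, which encodes the cyclin-dependent kinase inhibitor p21, was at 37.6, 40.02 and 63.9 FPKM in wild type and at 19.6, 21.3 and 18.03 FPKM in knockout. All knockout values were about the same, and the wild-type spread came from replicate 6. The log2 fold change of Cdkn1a was -1.18 (adjusted p = 0.203) over 6 libraries and -1.32 (adjusted p = 0.0190) without replicate 1.

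Cdkn1a is the best known target of p53, and 250 bases of its promoter are printed here because the gene was held lower beside Trp53 (GRCm38.p6, chromosome 17, chr17:29090729-29090978, plus strand, RefSeq). Capitals mark the 2 matches to the p53 decamer motif, which start 73 and 51 bases before the transcript start.
Cdkn1a: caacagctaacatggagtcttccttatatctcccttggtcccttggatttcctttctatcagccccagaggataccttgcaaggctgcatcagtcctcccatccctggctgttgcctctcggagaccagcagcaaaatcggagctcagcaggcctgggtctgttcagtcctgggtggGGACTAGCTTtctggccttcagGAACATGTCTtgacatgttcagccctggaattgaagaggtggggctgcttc
The motif was searched on both strands, overlapping matches included. It was found in 8 of 30 promoters of the list (26.7%) and in 7.13% of all 32851 mouse promoters of that length. A match is a stretch of letters and does not show binding.

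Phlda3, an inhibitor of Akt signalling, was at 12.6, 15.8 and 21.3 FPKM in wild type and at 6.64, 8.39 and 5.19 FPKM in knockout. Ccng1, which encodes cyclin G1, was at 40.8, 58.8 and 60.9 FPKM against 33.5, 28.3 and 25.8 FPKM. Both showed no overlap between the genotypes, which the held rule requires. Psrc1, a microtubule-binding protein of dividing cells, was at 4.06, 5.13 and 9.85 FPKM against 0.844, 0.406 and 0.01 FPKM, where 0.01 is the lowest value in the table. Its log2 fold change of -2.34 (-2.57 without replicate 1, adjusted p = 0.0141) was the largest of the list. Psrc1 met the filter of at least 1 FPKM in 3 libraries through the wild-type libraries only. It was not held with a pseudocount of 0.1 or with the filter raised to 5 FPKM. The growth factor gene Gdf15 was at 11.4, 12.7 and 29.6 FPKM against 2.599, 4.11 and 7.27 FPKM, without overlap, but was not held (adjusted p = 0.125 without replicate 1). Sesn2, a stress sensor that restrains mTORC1, was at 15.6, 14.2 and 17.4 FPKM against 11.2, 10.3 and 12.7 FPKM and was not held either. Mdm2 did not follow the others: it was at 24.5, 18.6 and 18.99 FPKM against 24.8, 28.3 and 23.6 FPKM (log2 fold change 0.30, adjusted p = 0.397).

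Among p53 targets that promote cell death, Bbc3 was the 1 held member. Bbc3 encodes Puma, a BH3-only protein that triggers apoptosis. It was at 9.799, 12.2 and 11.7 FPKM in wild type and at 4.35, 4.903 and 5.29 FPKM in knockout, with no overlap (log2 fold change -1.06, SE 0.122, adjusted p = 0.110; -1.15, adjusted p = 0.0098, without replicate 1). The median of the 17 tested members was 0.058 over 6 libraries and -0.10 without replicate 1, with 7 and 11 negative fold changes; 3 were lower and 1 higher at an unadjusted p under 0.05. Bax, which permeabilises mitochondria, was at 36.5, 52.7 and 82.3 FPKM against 35.98, 41.2 and 47.1 FPKM and overlapped. Trp73, a p53 relative that is also needed for motile cilia, was at 3.55, 0.985 and 0.724 FPKM against 4.23, 5.15 and 2.64 FPKM, with an unadjusted p of 0.0419 over 6 libraries and overlap between the groups. Bik, another BH3-only gene outside the list that was chosen after its values were seen, was at 24.99, 35.3 and 44.4 FPKM against 16.7, 17.95 and 15.8 FPKM and was held lower (adjusted p = 0.01004 without replicate 1).

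**Figure D3:**
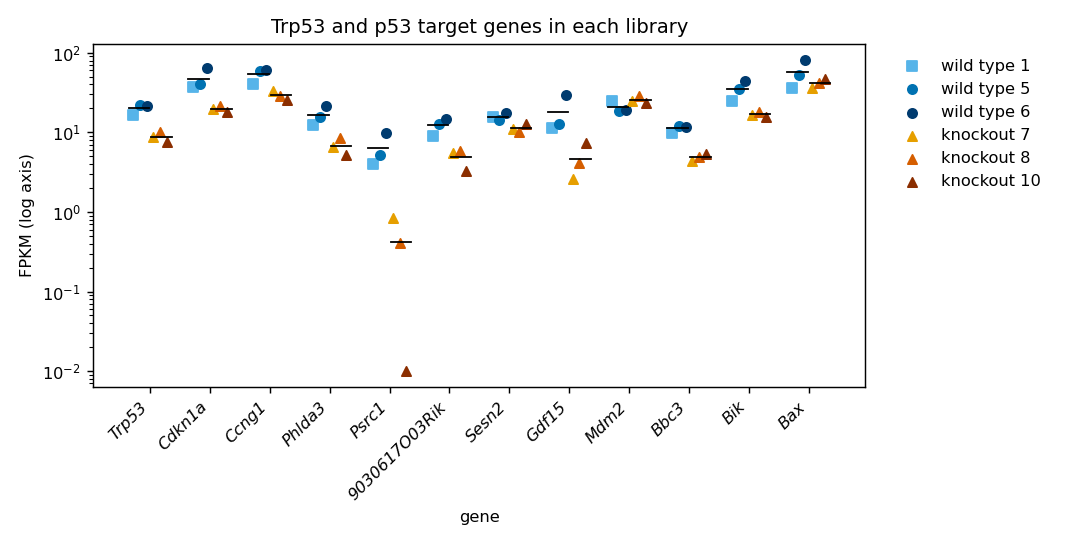
FPKM of Trp53 and 11 p53 target or cell death genes (log axis) in each library; points are libraries and black bars the group means. The groups do not overlap for Trp53, Cdkn1a, Ccng1, Phlda3, Psrc1, 9030617O03Rik, Sesn2, Gdf15, Bbc3 and Bik, while Mdm2 and Bax overlap; the lowest Psrc1 point is listed at 0.01.

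Clock genes differed in both directions. The circadian clock is a loop in which Arntl (Bmal1) and its partners Clock or Npas2 activate genes with E-boxes, among them the repressors Per and Cry, the Nr1d receptors that silence Arntl, and the D-box activator Dbp. Of 21 tested members 7 were higher and 6 lower at an unadjusted p under 0.05, and 9 higher and 6 lower did not overlap. Among the held genes were Cry1, Npas2 and Arntl, lower, and Nr1d2, higher. Cry1 was at 19.2, 15.4 and 13.8 FPKM in wild type and at 6.38, 5.696 and 6.33 FPKM in knockout (log2 fold change -1.25, SE 0.134, adjusted p = 0.0890; -1.13, adjusted p = 0.0096, without replicate 1). Npas2 was at 24.002, 24.97 and 18.6 FPKM against 10.2, 11.3 and 9.31 FPKM. Arntl was at 33.2, 29.2 and 22.9 FPKM against 13.7, 15.5 and 11.2 FPKM. In these 3 genes the 2 genotypes lay far apart, and without replicate 1 the fold changes were -1.13, -1.01 and -0.90.

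Nr1d2, Per2 and Dbp, which Arntl and its partners activate, had higher values in knockout. Nr1d2, a receptor that represses Arntl, was at 12.7, 15.3 and 17.2 FPKM in wild type and 31.7, 28.4 and 26.2 FPKM in knockout (log2 fold change 0.89, adjusted p = 0.0176 without replicate 1). Per2 was at 4.55, 5.58 and 7.35 FPKM against 11.7, 9.94 and 9.85 FPKM. Dbp was at 2.15, 2.61 and 9.002 FPKM against 13.4, 15.6 and 11.6 FPKM, and the spread of the wild type was wide. Rora, the activator opposed to the Nr1d receptors, was at 5.53, 5.31 and 4.71 FPKM against 3.07, 3.98 and 2.78 FPKM. Nfil3, the repressor that competes with Dbp at D-boxes, was at 18.4, 25.8 and 15.5 FPKM against 10.3, 13.5 and 12.3 FPKM. None of Per2, Dbp, Rora and Nfil3 passed the adjusted p without replicate 1. The labels do not give the time of day of collection, and its part in these differences was not tested.

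The promoters of Cry1, Ciart and Per3 are shown because the 3 genes belong to the loop and hold its sequence motifs (250 bases before the transcript start, RefSeq, GRCm38.p6, minus strand; E-box CACGTG and D-box TTATGTAA in capitals, searched on both strands). Cry1 lies at chr10:85185055-85185304, Ciart at chr3:95882229-95882478 and Per3 at chr4:151044666-151044915. Per3 was at 5.15, 3.68 and 7.36 FPKM against 10.5, 8.18 and 8.18 FPKM, and Ciart, a clock repressor, at 1.75, 2.03 and 3.15 FPKM against 4.23, 3.302 and 5.63 FPKM.
Cry1: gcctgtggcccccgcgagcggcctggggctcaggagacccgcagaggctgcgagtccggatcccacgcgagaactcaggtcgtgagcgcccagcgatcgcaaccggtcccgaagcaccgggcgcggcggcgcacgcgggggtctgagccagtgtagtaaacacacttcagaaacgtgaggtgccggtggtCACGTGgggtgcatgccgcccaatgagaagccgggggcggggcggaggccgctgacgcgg
Ciart: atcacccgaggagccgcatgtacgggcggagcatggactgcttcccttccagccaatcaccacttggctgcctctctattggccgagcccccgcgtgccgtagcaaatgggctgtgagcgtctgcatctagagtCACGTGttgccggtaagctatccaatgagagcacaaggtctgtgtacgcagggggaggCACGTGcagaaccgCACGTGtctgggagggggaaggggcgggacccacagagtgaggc
Per3: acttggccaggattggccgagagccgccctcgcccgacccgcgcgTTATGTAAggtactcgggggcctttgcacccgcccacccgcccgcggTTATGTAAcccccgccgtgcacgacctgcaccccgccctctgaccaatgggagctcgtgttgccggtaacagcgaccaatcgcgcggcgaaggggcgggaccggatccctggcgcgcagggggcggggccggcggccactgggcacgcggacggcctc
Cry1 holds 1 E-box, Ciart 3 E-boxes and Per3 2 D-boxes. E-boxes were found in 6 of 24 promoters of 16 clock genes with an entry and in 6.02% of all promoters. D-boxes were found in 1 of 24 and in 0.819% of all promoters. A match is a description of these letters only.

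**Figure D4:**
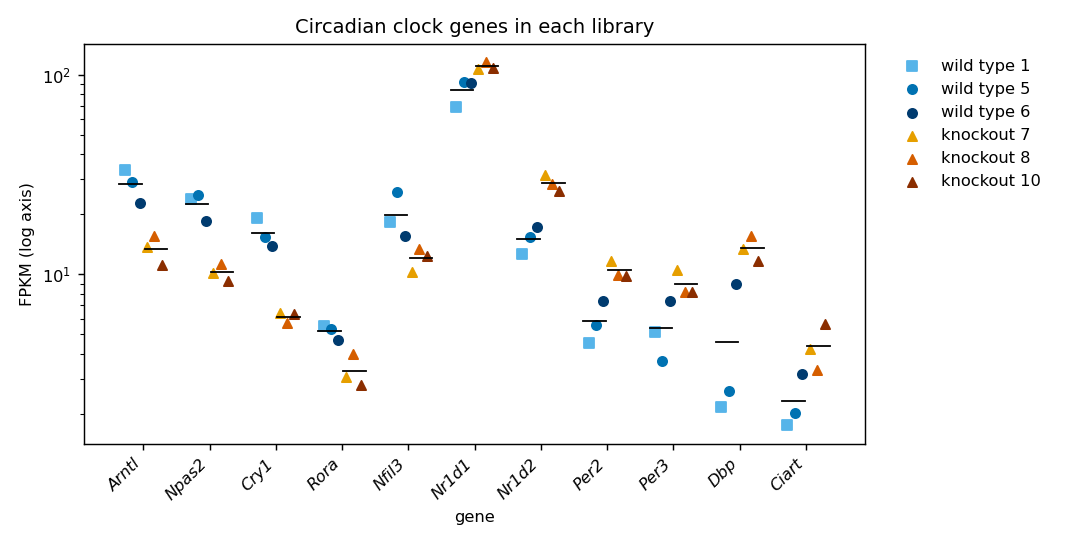
FPKM of 11 clock genes (log axis) in each library; points are libraries and black bars the group means. Arntl, Npas2, Cry1, Rora and Nfil3 lie lower in all 3 knockout libraries and Nr1d1, Nr1d2, Per2, Per3, Dbp and Ciart lie higher.

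Outside the cilium, the genes held higher included a pair of vascular and clotting factors and an importin. Edn2, the vasoconstrictor endothelin 2, was at 1.45, 2.96 and 2.79 FPKM in wild type and at 16.3, 32.3 and 15.6 FPKM in knockout. That is 8.91 times the wild-type mean (log2 fold change 2.67, SE 0.312; adjusted p = 0.110 over 6 libraries and 0.0151 without replicate 1). F3, tissue factor, was at 45.1, 56.1 and 63.9 FPKM against 128.9, 130.5 and 173.3 FPKM, a ratio of 2.62 that was held. Both are on the list of targets of YAP and TEAD, of which 6 of 31 were higher and 2 lower at an unadjusted p under 0.05, and 9 higher and 2 lower did not overlap. Ctgf, a matricellular target of YAP, was at 5.31, 13.8 and 5.49 FPKM against 32.6, 40.1 and 27.4 FPKM, but the adjusted p without replicate 1 was 0.0701. Cyr61 passed only without replicate 1, which at 84.6 FPKM lay above every knockout library. Nt5e, an ectonucleotidase, was at 8.35, 9.81 and 9.08 FPKM against 13.5, 14.5 and 12.3 FPKM and was not held. The list median was 0.08. Over all tested genes 7.04% were higher and 6.05% lower at an unadjusted p under 0.05.

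Kpna2 encodes importin alpha 1, which carries proteins into the nucleus. It was at 19.2, 24.7 and 24.5 FPKM in wild type and at 49.8, 48.5 and 52.01 FPKM in knockout, a ratio of 2.20 with narrow spread in both groups (log2 fold change 1.11, SE 0.118; adjusted p = 0.0890 over 6 libraries and 0.0088 without replicate 1). It was the only held gene of 27 tested nuclear import genes and the only one of 29 tested genes of the list of G2/M and mitosis. The list of G1/S and DNA replication had 1 of 30 members higher and 0 lower at an unadjusted p under 0.05, and a median of 0.013. Hspa1b, an inducible Hsp70, was at 2.72, 3.06 and 2.98 FPKM against 7.35, 7.64 and 5.51 FPKM and was held, but it is nearly identical to Hspa1a, so reads can be shared between them. Of 25 tested heat shock genes 5 were higher and 2 lower at an unadjusted p under 0.05. The shares over all tested genes were 7.04% and 6.05%. Cldn4, a tight junction claudin, was at 10.3, 14.1 and 14.5 FPKM against 25.2, 23.3 and 20.98 FPKM. Cdkn1c, the kinase inhibitor p57, was at 21.8, 20.2 and 22.1 FPKM against 32.7, 29.8 and 38.1 FPKM, the reverse of Cdkn1a. Both were held higher, Cdkn1c not with equal summed FPKM.

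Genes of motile cilia were higher as a body. Motile cilia are built on an axoneme of microtubules with dynein motors, and their genes are switched on by Foxj1, Myb and the Rfx factors. Of the 54 tested axoneme genes of 59, all had a positive fold change in both fits. The median was 1.26 over 6 libraries and 1.84 without replicate 1. At an unadjusted p under 0.05, 41 were higher; 46 passed the adjusted p without replicate 1; 12 did not overlap, and 11 were held. In all 54, every knockout library lay above wild-type replicates 5 and 6. Replicate 1 was above the other 2 wild-type libraries in 53 of them and above the lowest knockout library in 42. The summed FPKM of these 54 genes ran from 441 to 1318 in wild type and from 1227 to 2087 in knockout, and the highest wild-type sum is that of replicate 1. In bulk RNA, a larger share of ciliated cells and more ciliary RNA per cell cannot be told apart.

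Tekt1, a microtubule protein of the axoneme, was at 21.7, 4.92 and 3.48 FPKM in wild type and at 31.8, 39.3 and 22.2 FPKM in knockout. Odf3b was at 23.5, 5.22 and 6.14 FPKM against 33.01, 47.01 and 30.03 FPKM. Fam183b was at 50.5, 15.9 and 15.2 FPKM against 80.1, 116.6 and 62.1 FPKM. In each, replicate 1 lay between the other wild-type libraries and the knockout libraries, close to the lowest knockout library. Of the regulators, 15 of 16 tested had a positive fold change, 7 were higher at an unadjusted p under 0.05, and the held genes were Foxj1, Myb and Ccdc67 (Deup1), which builds centrioles for the many cilia of a cell. Foxj1 was at 18.6, 5.52 and 5.12 FPKM against 22.6, 32.9 and 22.04 FPKM, and Ccdc67 at 2.51, 1.34 and 1.38 FPKM against 4.11, 4.905 and 5.37 FPKM. The log2 fold change of Ccdc67 was 1.099 (adjusted p = 0.208; 1.29, adjusted p = 0.0112, without replicate 1). All 33 genes of intraflagellar transport and the BBSome, the cargo machinery of cilia, had positive fold changes with a median of 0.34; 14 did not overlap and 5 were held, among them Ift22, at 20.5, 18.1 and 20.7 FPKM against 26.8, 31.6 and 33.5 FPKM. In Ift22 replicate 1 was level with the other wild-type libraries. With equal summed FPKM the list medians stayed positive, but 0 of the 11 held axoneme genes remained held, nor did Foxj1 and Myb. Of the regulators Ccdc67 remained, and of the 5 genes of intraflagellar transport and the BBSome Ift22. Those sums leave out Sftpc in wild-type replicates 1 and 5. With scaling by median ratio Foxj1, Myb, Tekt1, Odf3b and Fam183b stayed held. That scaling left the values nearly unchanged, so it is no separate check of these genes.

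The promoter of Fam183b is shown as that of an axoneme gene of the held class that carries a motif of Rfx factors (GTTGCC, in capitals, both strands searched; RefSeq, GRCm38.p6, minus strand, chr11:58801961-58802210).
Fam183b: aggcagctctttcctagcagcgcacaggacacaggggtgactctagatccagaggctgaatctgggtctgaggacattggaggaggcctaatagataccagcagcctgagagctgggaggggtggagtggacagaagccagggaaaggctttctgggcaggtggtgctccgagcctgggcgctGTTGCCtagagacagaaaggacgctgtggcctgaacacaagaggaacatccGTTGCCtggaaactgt
This motif occurred in 21 of 54 promoters of 45 axoneme genes with an entry (38.9%) and in 10.4% of all promoters.

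**Figure D5:**
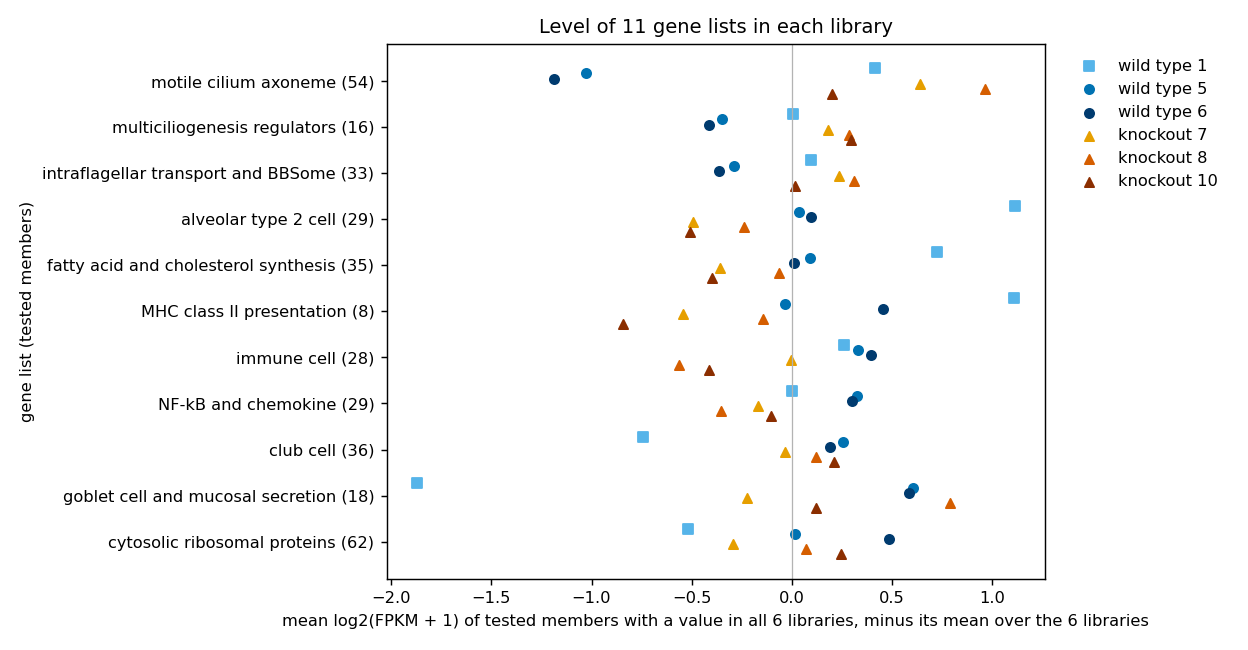
Mean log2(FPKM + 1) of 11 gene lists (tested members with a value in all 6 libraries) in each library, as a difference from its mean over the 6 libraries (x axis); points are libraries. In the motile cilium list wild-type replicate 1 lies near the knockout libraries and far above replicates 5 and 6, and in the club and goblet lists it lies lowest; in the immune list the wild-type libraries (2.91 to 3.05 as a level) lie above all knockout libraries (2.09 to 2.65).

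Alveolar type 2 genes, lipid synthesis genes and genes of MHC class II presentation were lower together, with much of the size carried by replicate 1. Type 2 cells make surfactant lipid and present antigen on MHC class II. All 29 tested type 2 genes had negative fold changes over 6 libraries (28 without replicate 1), 13 were lower at an unadjusted p under 0.05 and 19 did not overlap. The median was -0.74, and -0.47 without replicate 1. Only 26 of the 29 had a value in every library. Sftpc, whose fold change is the median over 6 libraries, had no valid value in wild-type replicates 1 and 5. It was at 56452 FPKM in wild-type replicate 6 and at 28268 to 43232.5 FPKM in knockout. It counts among the 19 without overlap on that 1 wild-type library. Held lower were Il33, an alarmin cytokine, at 192.8, 58.6 and 62.2 FPKM against 30.7, 40.4 and 28.95 FPKM, and Ppp1r14c, at 169.2, 101.9 and 102.03 FPKM against 72.3, 66.99 and 64.2 FPKM. In both, replicate 1 was the highest library and the other 2 wild-type libraries still lay above every knockout library; neither was held with equal summed FPKM. Fabp5, a fatty acid carrier, was at 671.4, 272.3 and 246.2 FPKM against 110.8, 193.5 and 108.7 FPKM and was not held. The marker Lamp3 was at 691.8, 229.7 and 225.2 FPKM against 145.2, 175.1 and 140.9 FPKM (adjusted p = 0.360, and 0.0743 without replicate 1).

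Of 35 tested genes of fatty acid and cholesterol synthesis, 34 had negative fold changes in both fits, 16 were lower at an unadjusted p under 0.05, 18 did not overlap and 0 were held. The median went from -0.49 to -0.30 without replicate 1. Dhcr7, the last enzyme of cholesterol synthesis, was at 17.6, 10.8 and 9.498 FPKM against 3.48, 7.45 and 4.305 FPKM. Mvd, of the mevalonate pathway, was at 21.2, 14.3 and 15.5 FPKM against 8.87, 12.3 and 8.22 FPKM. All 8 tested MHC class II genes had negative fold changes, 7 were lower at an unadjusted p under 0.05, 6 did not overlap and 0 were held. H2-Aa, an MHC class II alpha chain, was at 578.5, 225.6 and 297.2 FPKM against 128.1, 189.6 and 119.9 FPKM, and Cd74, the invariant chain, at 2153, 897.04 and 1259 FPKM against 582.6, 747.6 and 558.96 FPKM. Without replicate 1 their adjusted p-values were 0.109 and 0.117. Of the type 2 markers beside these lists, Slc34a2 did not overlap (1030.01 to 3129 FPKM in wild type, 599 to 820 in knockout), while Abca3 (156 to 338 against 137 to 165 FPKM) and Sftpb (1930.1 to 2822 against 2021 to 2399.5 FPKM) did; their part in the lists' values was not tested.

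Immune cell genes were lower to the same extent with and without replicate 1. All 28 tested members had negative fold changes in both fits, with a median of -0.65 in each. At an unadjusted p under 0.05, 19 were lower, 18 did not overlap, and 6 were held: Cd52, Coro1a, Fcer1g, Cd79a, Arhgdib and Ctss. Cd52, a surface peptide of lymphocytes, was at 11.7, 12.3 and 17.99 FPKM against 7.11, 5.06 and 5.195 FPKM. Coro1a, an actin regulator of leukocytes, was at 8.76, 9.28 and 9.395 FPKM against 5.56, 3.67 and 3.11 FPKM. Neither gene overlapped between the genotypes, which the held rule requires. The B-cell gene Cd79a was at 2.01, 4.33 and 3.897 FPKM against 0.475, 0.693 and 1.67 FPKM, and Ptprc at 3.94, 4.12 and 3.15 FPKM against 2.64, 0.817 and 1.27 FPKM. The leukocyte marker Csf1r overlapped, at 4.76, 4.99 and 2.89 FPKM against 5.08, 2.16 and 2.72 FPKM. Summed over the 28 members, FPKM ran from 381 to 458 in wild type and from 195 to 347 in knockout. CD45 was used to sort these cells negative, and how many CD45+ cells remained was not measured; the part of other cells in these values was not tested. Depth in the shallowest knockout library limits these low values.

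NF-kB and chemokine genes had negative fold changes in 25 of 29, and in 29 of 29 without replicate 1, with medians of -0.39 and -0.40; 9 were lower at an unadjusted p under 0.05 and 0 were held. Nfkbiz, an NF-kB cofactor, was at 15.7, 14.1 and 16.4 FPKM against 6.35, 8.28 and 10.3 FPKM, with no overlap. Held lower outside the lists described so far were Socs3, a feedback inhibitor of cytokine signalling, at 36.3, 41.7 and 30.8 FPKM against 15.3, 21.4 and 18.96 FPKM; H1f0, the linker histone of quiescent cells, at 116.4, 92.6 and 105.9 FPKM against 57.3, 54.4 and 59.4 FPKM; and Efna1, an ephrin ligand, at 77.9, 82.2 and 66.8 FPKM against 45.6, 41.3 and 36.8 FPKM. Socs3 and Efna1 were chosen after their values were seen. Igfbp7, a secreted insulin-like growth factor binding protein, was at 141.7, 94.3 and 88.3 FPKM against 43.98, 53.2 and 42.9 FPKM. The acute-phase gene Itih4 was at 146.5, 38.9 and 43.9 FPKM against 12.6, 21.7 and 16.1 FPKM, and Glipr2 at 23.9, 11.02 and 12.1 FPKM against 4.96, 4.34 and 2.67 FPKM. Replicate 1 was the highest library for Igfbp7, Itih4 and Glipr2, and each was held lower.

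Held genes also came from other lists. Fbxo32, a ubiquitin ligase of protein breakdown, was at 6.24, 5.63 and 6.08 FPKM in wild type and at 3.14, 2.59 and 2.67 FPKM in knockout, and was the 1 held gene of 31 tested autophagy and lysosome genes. Trib3, a pseudokinase of the integrated stress response, was at 7.05, 6.49 and 5.59 FPKM against 2.93, 3.14 and 3.55 FPKM, 1 held of 28. Sox4, a transcription factor of developing and injured epithelium, was at 23.3, 18.9 and 22.5 FPKM against 12.5, 13.4 and 12.7 FPKM, but was not held with equal summed FPKM; in its list of lung epithelial transcription factors 3 of 35 were higher and 7 lower at an unadjusted p under 0.05. These 3 genes were lower in every knockout library, which the held rule requires, and their spread was narrow. Vim and Sparc, typical of mesenchymal cells, were also held lower, Vim at 8.19, 7.22 and 7.37 FPKM against 4.64, 4.11 and 4.69 FPKM and Sparc at 54.1, 30.4 and 28.9 FPKM against 18.2, 19.9 and 16.6 FPKM. Vim was not held with equal summed FPKM, and 8 of the 13 tested genes of their list of fibroblast and smooth muscle cells had positive fold changes without replicate 1. On the higher side, Gstp2, a glutathione transferase, was at 6.82, 9.36 and 10.8 FPKM against 16.5, 19.6 and 16.5 FPKM and is a close relative of Gstp1, so shared reads make it uncertain. Lfng, a modifier of Notch receptors, was at 2.61, 1.24 and 1.29 FPKM against 3.67, 6.01 and 3.75 FPKM. Among 32 tested Wnt genes 3 were higher and 4 lower at an unadjusted p under 0.05 and 1 was held (Tcf7l1, lower), and among 31 of DNA damage response and repair 2 were higher and 1 was held (Ogg1). Over all tested genes 7.04% were higher and 6.05% lower at an unadjusted p under 0.05. The share held over all tested genes was 1.52%, so 1 held gene in a list of this size says little about the list. Neither Tcf7l1 nor Ogg1 was held with equal summed FPKM, and Ogg1 was held in 3 of 10 other settings.

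The direction of secretory cell genes depended on replicate 1. In the club cell list 29 of 36 fold changes were positive, but 13 of 36 without replicate 1, and the median went from 0.20 to -0.05. Cbr2, a carbonyl reductase of club cells, was at 16234, 26950 and 34254 FPKM against 31432, 27552 and 33252 FPKM. The list of goblet cells and mucosal secretion went from a median of 0.57 to -0.37; its 1 held gene was Slpi, a protease inhibitor, lower at 25.8, 15.1 and 18.7 FPKM against 10.5, 10.01 and 9.51 FPKM. The cytosolic ribosomal protein list went from 0.09 to -0.15, nuclear oxidative phosphorylation genes from 0.07 to -0.10 and the list of fibroblast and smooth muscle cells from -0.53 to 0.01. In the ribosomal list replicate 1 was below the other wild-type libraries in 62 of 62 genes.

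Other genes passed the adjusted p without replicate 1 but were not held. Cxcl5, a neutrophil chemokine, was at 16.2, 239.8 and 224.8 FPKM in wild type and at 92.2, 40.9 and 74.8 FPKM in knockout, and its log2 fold change went from -0.55 (adjusted p = 0.875) to -1.81 (adjusted p = 0.0421). Slc13a2, a citrate transporter, was at 2.04, 10.7 and 9.33 FPKM against 4.88, 4.78 and 4.56 FPKM. Ephx1, an epoxide hydrolase, was at 244.6, 420.99 and 446.4 FPKM against 288.3, 282.4 and 258.8 FPKM. In each of these 3, replicate 1 was the lowest library. These 3 had unadjusted p-values of 0.625, 0.527 and 0.173 over 6 libraries. The higher genes of this class with the largest fold changes were Ccdc153, Cdhr3, Mapk15, Ccdc78, Spata18 and Pcp4l1. Cdhr3, a cadherin of ciliated cells, was at 19.02, 4.32 and 3.25 FPKM against 26.2, 33.02 and 17.3 FPKM; its unadjusted p over 6 libraries was 0.0196, and replicate 1 lay above the lowest knockout library. In other genes the unadjusted p under 0.05 was lost without replicate 1. Lyz1, a lysozyme, was at 1538, 949.5 and 606.7 FPKM against 150.5, 639.9 and 268.9 FPKM. The groups overlapped, and the log2 fold change was -1.69 (unadjusted p = 0.0203) over 6 libraries and -1.36 (unadjusted p = 0.0875) without replicate 1.

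The gene that passed over all 6 libraries was a microRNA gene, and its values rest on few reads. Mir6374 was at 20.98, 26.002 and 14.1 FPKM in wild type and listed at 0.01 in every knockout library (adjusted p = 0.0025, and 0.0045 without replicate 1). It is a hairpin of 107 bases on chromosome 6 (83400996 to 83401102, minus strand, mm10) in an intron of Tet3 (83362373 to 83459084, minus strand). Tet3 itself was at 3.32, 3.17 and 3.49 FPKM against 3.25, 3.58 and 3.095 FPKM. Divided by what 1 read is worth in each library, the wild-type values are in the ratio of 3, 3 and 1 reads. These are the smallest whole numbers that give the values within 2%. A single read would have given 24.1, 12.3 and 49.2 FPKM in knockout replicates 7, 8 and 10, and 3.04 reads over the 3 libraries would be the number at the wild-type rate. A loss of Mir6374 cannot be told from low depth at these read numbers. Mir6363 (chromosome 16, 50727132 to 50727245), held lower, was in the ratio of 1, 1 and 2 reads in wild type and 0 in knockout. Mir6374 and Mir6363 met the filter of at least 1 FPKM in 3 libraries through the wild-type libraries only. Their being higher in wild type is therefore partly set by the filter. Of 35 tested microRNA genes 4 had an unadjusted p under 0.05, and 2 were held. Over all tested genes 13.1% had such a p and 1.52% were held. Mir466i, higher in knockout, and Mir3101, lower, lost this p without replicate 1. Mir466i was in the ratio of 1, 3 and 0 reads in wild type and 3, 3 and 1 in knockout. Mir3101 was in the ratio of 4, 1 and 3 against 0, 1 and 0. The labels name no selection of small RNA, so mature microRNAs were not measured on their own.

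The mature sequences of Mir6374 and Mir6363 are shown because these 2 genes are the held microRNA calls. The seed (bases 2 to 8) is in capitals. Their positions are chr6:83401060-83401081, minus strand, and chr16:50727204-50727225, plus strand (RefSeq, GRCm38.p6).
mmu-miR-6374: aAGUUAUAagcuaguuggugcu
mmu-miR-6363: uGUAGACUggacuguccucaaa
The 2 seeds differ.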

How the data were processed

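RNA from sorted cells was made into libraries with the SMARTer Ultra Low Input v3 kit and Nextera indices and sequenced as single reads of 75 nucleotides on a NextSeq 500, per the labels' protocols. The authors deposited FPKM values for mm10; TopHat, Bowtie2 and Cufflinks are named in the submitters' processing notes, while versions and the normalization setting are not given in the sources used here. Count models were not applied, because FPKM is not a count. Of the entries, 20 (13 LOWDATA, 7 FAIL) in 12 genes carry a mark in place of a value and were treated as missing; 9 of these genes were tested, so their fits drop libraries.

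Genes at 1 FPKM or more in 3 or more libraries were analysed here as log2(FPKM + 1). limma (version 3.58.1, R 4.3.3) was fitted with trended and robust eBayes; tests were two-sided, adjusted by Benjamini-Hochberg over 11966 genes, with a threshold of 0.05. The fit was tested on simulated data. Named genes were Trp53, each gene past the adjusted p, the 12 higher and 12 lower held genes of largest fold change, 6 and 6 of each of the 2 other classes (all with mean FPKM of at least 5), and up to 4 members per list with the smallest p. Not all of them are printed, and some results are not reported here. Cell type markers were fixed beforehand, but with earlier results of these data known, and not all markers are printed. Genes outside the naming rule, such as Bik, Socs3, Efna1, Gdf15, Bax, Mdm2, Per2, Per3, Dbp, Ciart, Rora, Nfil3, Cyr61, Tet3 and some members of the cilium and immune lists, were chosen after their values were seen. The members and the gene lists were chosen with earlier results of these data known. Alternatives were pseudocounts, filters, scalings, library weights, the eBayes setting, marked genes left out and each library left out in turn. The value of 1 read was taken from the steps between low FPKM values and is an estimate. Gene positions are from GENCODE vM21, and promoters and microRNAs from RefSeq.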

Additional observations from a re-analysis of the deposited data

How the results depend on the processing

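No paired analysis was possible because the groups share no replicate numbers (1, 5 and 6 against 7, 8 and 10). Genes past the adjusted p numbered 1 over 6 libraries, 1 to 408 when each library was left out in turn (408 without wild-type replicate 1), 2 with a pseudocount of 0.1, 6 after scaling to equal summed FPKM and 912 with limma library weights, which gave wild-type replicate 1 a weight of 0.236. Genes at an unadjusted p under 0.05 numbered 1567, and 1009 to 2001 over the left-out libraries, 624 after scaling to equal summed FPKM and 2905 with library weights. Held genes under other settings, added after seeing the data, were 0 higher and 0 lower with no filter on low values, 71 higher with the filter raised to 5 FPKM and 54 higher with equal summed FPKM, against 121 and 61; the cause was not tested. Scaling by median ratio, with factors of only 1.001 to 1.006, held 117 higher and 61 lower. Quantile normalization held 139 and 84, and library weights 141 and 70. A pseudocount of 0.1 held 129 and 59, and a pseudocount of 5 held 86 and 48. The log2 fold change of Trp53 passed without wild-type replicate 1 (-1.25) and with library weights (-1.22), with a leave-one-out range of -1.25 to -1.03. Directions turned in some settings. The leave-one-out ranges were -0.16 to 0.41 for Cldn10, -1.81 to 0.095 for Cxcl5, -0.55 to 0.51 for Scgb3a2, -0.94 to 0.033 for Slc13a2, -0.052 to 0.029 for Tet3 and -0.69 to 0.16 for Tmem40. Library weights gave -0.050 for Cldn10, -0.58 for Scgb3a2 and 0.036 for Tet3, and quantile normalization gave -0.057 for Cyp2f2 and -0.26 for Scgb3a2. Depth, lowest in knockout replicate 10, limits genes of few reads.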
